A study of Homo sapiens with 6 samples.

Results

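The genes described here are 10 metalloproteases and metalloprotease inhibitors of MDA-MB-468, an established triple-negative breast cancer (TNBC) cell line: the matrix metalloproteinases MMP7, MMP14 and MMP15, the tissue inhibitors of metalloproteinases TIMP1, TIMP2 and TIMP3, and the membrane proteases ADAM9, ADAM10, ADAM15 and ADAM17. They were taken by symbol from the 10487 genes of the deposited table, and all 10 were present. The table holds genes that averaged over 5 CPM (counts scaled to a common library size) in either group, and each of the 10 did so in both groups. The list was chosen by earlier results of this same comparison, so the differences of the 10 genes are given as a description, with no test of their own.

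The 6 libraries were 3 of control cells, labelled WT, and 3 of cells labelled IGFBP2 overexpression, and all were labelled as receiving no treatment. IGFBP2 binds insulin-like growth factors. In the overexpressing cells the endogenous IGFBP2 gene was activated with a guide RNA and dCas9-VHP, a Cas9 without nuclease activity fused to a transcriptional activator, both delivered by lentivirus. The cells had been selected with blasticidin and sorted for a fluorescent reporter, so they were a sorted pool. Whether the control cells carried the activator or a guide is not given in the sources used here, so the effects of IGFBP2 and of making the line cannot be told apart. The libraries are described as biological replicates without saying whether they were separate cultures, and p-values therefore measure the spread between these libraries only.

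RNA was measured by 3′ sequencing, which reads the end of each transcript, so that counts do not grow with transcript length. Levels of different genes are set side by side on this basis. Other differences between genes in capture or mapping were not checked. Levels are CPM, a gene's reads scaled to a common library size, and differences are log2 fold changes on the log2(CPM + 1) scale, overexpression minus control, which understates the change of low genes. The listed reads per library ranged from 2497353 to 4579587. IGFBP2 itself was at 93.5, 87.3 and 136 CPM in the control libraries and at 566, 1176 and 498 CPM in the overexpressing ones, and it rose with a log2 fold change of 2.73 ± 0.33 (SE; limma, adjusted p = 0.0148). Of 10 epithelial markers, 9 were in the table with a summed level of 4762 to 6278 CPM in control and 5335 to 6626 CPM in overexpressing libraries, and 0 of them passed the threshold. Of 8 fibroblast markers 1 was in the table, COL1A1, at 9.36 to 27.5 CPM over all libraries. None of the 4 endothelial and 5 leukocyte markers was in it. Over all genes 66 passed an adjusted p of 0.05 (limma with Benjamini-Hochberg adjustment), which is 0.629% of the table, with 0.429% higher and 0.2% lower in overexpressing cells. The 3 libraries of one group lay wholly outside those of the other for 18.0% of all genes, 9.43% higher and 8.61% lower.

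Metalloproteases are zinc-dependent enzymes that cut proteins of the extracellular matrix and the cell surface. Most MMPs are secreted, and MMP14 and MMP15 are held in the membrane, whereas ADAM proteases are membrane proteins that release the outer parts of growth factors, cytokine receptors and adhesion molecules, a step called shedding. The TIMPs bind the active site of many, but not all, of these enzymes and block it. MMP7, also called matrilysin, is a small secreted MMP without the hemopexin domain of most other members, is made mainly by epithelial cells, and is a known target of Wnt and AP-1 signalling. TIMP3 stays bound to the matrix and inhibits ADAM17 as well as MMPs.

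The promoters of the gene that was most elevated and of the gene that was most reduced in overexpressing cells are shown, because they differ in base composition and in known binding motifs. Each is the RefSeq window from 250 bases before to 50 bases after the gene start in GRCh38.p14, read 5′ to 3′ on the strand of the gene. Capitals mark matches, on either strand, to the AP-1 motif TGANTCA, to CTTTGA, the motif of the TCF/LEF partners of beta-catenin, and to the TATA box motif TATAAA.
MMP7, chr11:102530698-102530997, minus strand: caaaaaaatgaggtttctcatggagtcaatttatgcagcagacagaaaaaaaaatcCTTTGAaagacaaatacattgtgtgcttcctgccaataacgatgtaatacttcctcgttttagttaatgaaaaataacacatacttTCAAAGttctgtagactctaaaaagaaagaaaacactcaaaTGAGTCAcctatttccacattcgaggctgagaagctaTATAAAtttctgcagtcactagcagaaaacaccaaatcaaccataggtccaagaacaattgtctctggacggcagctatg
TIMP3, chr22:32801455-32801754, plus strand: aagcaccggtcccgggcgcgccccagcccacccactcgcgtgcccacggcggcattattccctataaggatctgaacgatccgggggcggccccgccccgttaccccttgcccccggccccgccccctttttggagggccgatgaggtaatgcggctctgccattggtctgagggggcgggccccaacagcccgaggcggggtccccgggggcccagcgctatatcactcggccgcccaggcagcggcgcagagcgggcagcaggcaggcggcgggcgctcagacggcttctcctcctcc
The MMP7 window held 1 AP-1 match at -67 (its first base, counted from the gene start), 2 TCF/LEF matches at -194 and -108, and 1 TATA match at -30, and no match overlapped another. Of 35116 human promoters of the same length, 7.71% held the AP-1 letters, 12.9% the TCF/LEF letters and 11.5% the TATA letters. The TIMP3 window held none of the 3 motifs, and neither did those of MMP14, MMP15, TIMP1, ADAM10, ADAM15 and ADAM17; TIMP2 and ADAM9 were not matched in the promoter table. G and C made up 35.7% of the MMP7 window and 72.7% of the TIMP3 window, against a median of 58.7% over all promoters. A match is a run of letters and not evidence of binding.

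MMP7 (ENSG00000137673, hg38 chromosome 11, 102520508 to 102530750, minus strand) was the most elevated of the 10 genes. Its levels were 5.33, 13.4 and 3.64 CPM in the control libraries and 106, 105 and 75.6 CPM in the overexpressing ones. Every overexpressing library was far above every control library. The means were 7.44 ± 5.19 and 95.7 ± 17.5 CPM (SD, n = 3 each), a 12.9-fold higher mean, and the log2 fold change was 3.67 ± 0.38 (SE). In control cells MMP7 lay near the bottom of the table, at the 24.6th percentile of its library at most, whereas in overexpressing cells it lay at the 76.4th percentile or above. The control values rested on few reads, 24, 48 and 9, and the exact Poisson 95% interval of the lowest was 1.66 to 6.91 CPM. The overexpressing libraries held 273, 326 and 230 reads, and the lowest had an interval of 66.1 to 86.0 CPM. These intervals cover counting error only. Its log2 fold change lay between 3.33 and 4.14 in the 6 fits that each dropped 1 library. In bulk RNA, more cells that express MMP7 and more MMP7 RNA per cell cannot be told apart.

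The membrane-bound MMPs did not share this pattern. MMP14 (chromosome 14, 22836560 to 22849041), which cuts collagen and activates the MMP2 proenzyme, was at 18.0, 33.1 and 44.9 CPM in control and 22.2, 23.9 and 38.1 CPM in overexpressing libraries, and the groups overlapped. Its log2 fold change was -0.13 ± 0.34 (SE) and ran from -0.48 to 0.15 with 1 library left out. MMP15 (chromosome 16, 58025754 to 58046901), a related membrane-type MMP, was at 26.0, 27.8 and 25.5 CPM and at 34.7, 23.9 and 28.6 CPM, with a log2 fold change of 0.12 ± 0.20 (SE). As a result, MMP7 made up 10.8%, 18.0% and 4.92% of the summed CPM of the 3 MMP genes in the control libraries and 65.2%, 68.8% and 53.1% in the overexpressing ones.

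**Figure D1:**
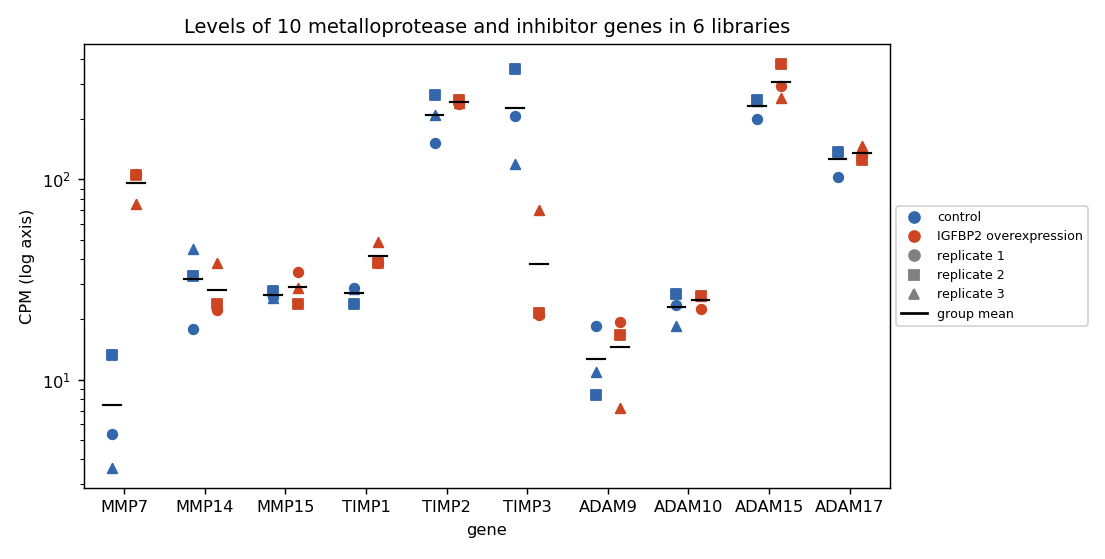
Level of each of the 10 genes in CPM on a log axis, with 1 point per library (blue: control; red: IGFBP2 overexpression; marker shape: replicate) and a line at each group mean. The control points of MMP7 lie between 3.64 and 13.4 CPM and the overexpressing ones between 75.6 and 106 CPM, whereas for TIMP3 the control points are on top.

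Among the inhibitors TIMP3 differed most. TIMP3 (ENSG00000100234, chromosome 22, 32801705 to 32863041, plus strand) was at 206, 355 and 120 CPM in the control libraries and at 21.1, 21.6 and 70.3 CPM in the overexpressing ones. The groups did not overlap, but both were uneven, and overexpression replicate 3 was well above the other two. The means were 227 ± 119 and 37.7 ± 28.3 CPM (SD, n = 3 each), so that the control mean was 6.03-fold higher, and the log2 fold change was -2.66 ± 0.51 (SE). It was -3.21 without overexpression replicate 3 and -2.27 without control replicate 2. Reads were not the limit, with 296 to 1277 in control and 54 to 214 in overexpressing libraries.

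TIMP1 (chromosome X, 47582408 to 47586789), a secreted inhibitor of most MMPs, was at 28.9, 23.9 and 28.3 CPM in control and 38.2, 38.1 and 48.6 CPM in overexpressing libraries. All 3 overexpressing libraries were higher, by a small margin, with means of 27.0 ± 2.71 and 41.6 ± 6.05 CPM (SD, n = 3 each) and a log2 fold change of 0.60 ± 0.19 (SE). TIMP2 (chromosome 17, 78852977 to 78925387), which besides inhibiting MMPs takes part in the activation of MMP2 by MMP14, was at 153, 263 and 210 CPM and at 237, 249 and 242 CPM. Its groups overlapped, with a log2 fold change of 0.25 ± 0.23 (SE), and its 3 overexpressing libraries lay close together, with an SD of 5.93 CPM against 55.1 CPM in control.

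The makeup of the inhibitors therefore differed between the groups. TIMP3 made up 53.2%, 55.3% and 33.4% of the summed CPM of the 3 TIMP genes in the control libraries and 7.10%, 7.001% and 19.5% in the overexpressing ones. TIMP2 made up 39.4%, 40.9% and 58.7% in control and 80.03%, 80.7% and 67.1% in overexpressing libraries. The sum itself was 388, 642 and 358 CPM in control and 297, 309 and 361 CPM in overexpressing libraries, and these ranges overlapped at overexpression replicate 3. There were 0.0137, 0.0208 and 0.0102 CPM of MMP7 per CPM of summed TIMP in the control libraries and 0.359, 0.341 and 0.209 in the overexpressing ones. Against TIMP3 alone, MMP7 stood at 0.0258, 0.0376 and 0.0304 CPM per CPM in control, and at 5.06, 4.87 and 1.07 in overexpressing libraries, where it was the more abundant of the pair in all 3. These ratios are of RNA and follow from the levels of the chosen genes, and protein or enzyme activity was not measured in these files.

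**Figure D2:**
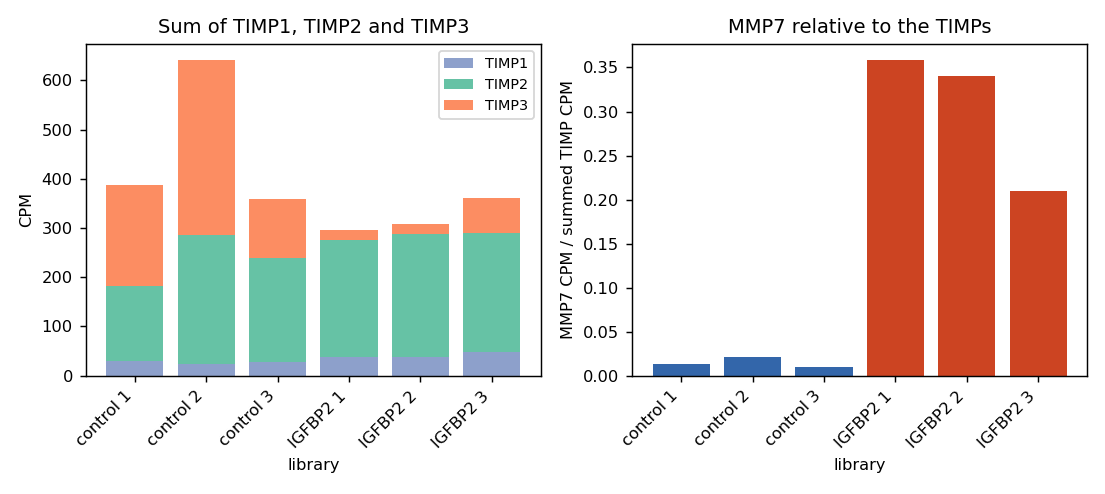
Left, summed CPM of TIMP1, TIMP2 and TIMP3 in each library as stacked bars; right, MMP7 CPM divided by the summed TIMP CPM in each library (blue: control; red: IGFBP2 overexpression). The TIMP3 part is 33.4% to 55.3% of the control bars and 7.001% to 19.5% of the overexpressing ones, and the ratio lies between 0.0102 and 0.0208 in control and between 0.209 and 0.359 in overexpressing libraries.

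The 4 ADAM genes had smaller differences between the groups than MMP7 and TIMP3. ADAM15 (chromosome 1, 155050566 to 155062775), a protease with an integrin-binding disintegrin domain, was at 199.6, 250.6 and 246 CPM in control and 292, 376 and 256 CPM in overexpressing libraries. The groups did not overlap, but control replicate 2 and overexpression replicate 3 nearly met, and the log2 fold change was 0.40 ± 0.21 (SE). ADAM17 (chromosome 2, 9488486 to 9556732), the sheddase of TNF and of several EGFR ligands, was at 103, 138 and 139 CPM and at 133, 126 and 147 CPM, a log2 fold change of 0.11 ± 0.20 (SE). ADAM10 (chromosome 15, 58588809 to 58749791), which sheds Notch receptors and cadherins, was at 23.5, 26.7 and 18.6 CPM and at 22.6, 26.1 and 26.3 CPM, a log2 fold change of 0.13 ± 0.20 (SE). For ADAM9, another membrane sheddase, the levels were 18.6, 8.34 and 10.9 CPM in control and 19.5, 16.8 and 7.23 CPM in overexpressing libraries. Its log2 fold change of 0.15 ± 0.38 (SE) had the widest error of the ADAM genes. The groups of ADAM9, ADAM10 and ADAM17 overlapped. ADAM9 and ADAM17 overlap TM2D2 and IAH1 on the opposite strand, both also in the table. The strand setting of the counting is not given in the sources used here, so whether the overlap affected these counts is not known. The genes that overlap TIMP1, TIMP2, TIMP3, ADAM10 and ADAM15 were not in the table.

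Counted together, 1 of the 10 genes, MMP7, passed the adjusted p of 0.05 in the fit over all genes and 0 passed in the other direction, beside 0.429% and 0.2% of all genes. The groups did not overlap for 3 genes that were higher, MMP7, TIMP1 and ADAM15, and for 1 that was lower, TIMP3, beside 9.43% and 8.61% of all genes. Nothing is read from these counts, since the genes were selected on this contrast. The median log2 fold change of the 10 genes was 0.14, with 8 positive and 2 negative, but the sign of 5 of the 10 (MMP14, MMP15, ADAM9, ADAM10 and ADAM17) changed when single libraries were dropped. The median of all genes was 9.8e-05, with 5246 of 10487 above 0.

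**Figure D3:**
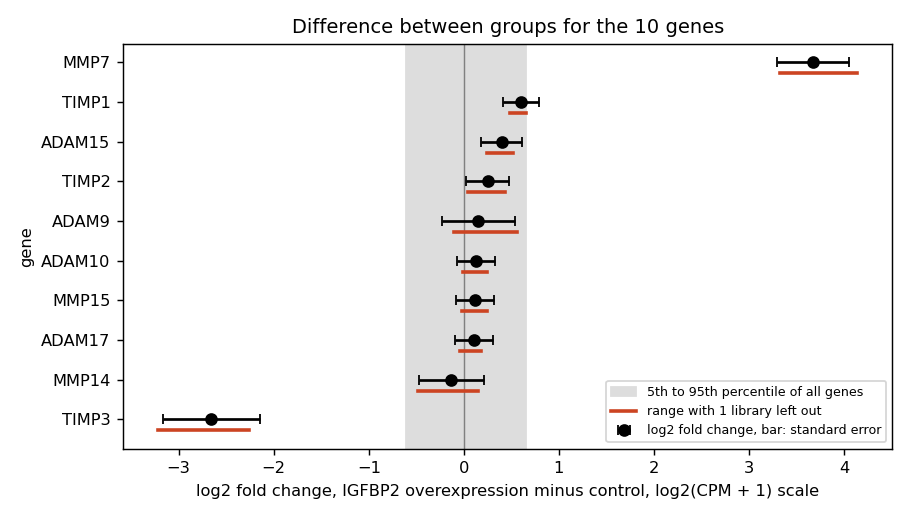
Log2 fold change of each of the 10 genes (point) with its standard error (black bar) and the range of the estimate when 1 library is left out (red bar), on the log2(CPM + 1) scale, overexpression minus control. MMP7 at 3.67 and TIMP3 at -2.66 lie outside the grey band, the 5th to 95th percentile of all genes from -0.61 to 0.66, and the other 8 genes lie inside it.

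Ordered by mean level, control cells had ADAM15, TIMP3 and TIMP2 on top, at 232, 227 and 209 CPM, and these neighbours did not differ beyond their ranges. ADAM17 followed at 126 CPM, apart from TIMP2 and MMP14, its neighbours in this order. Its range of 103 to 139 CPM overlapped that of TIMP3, 120 to 355 CPM. The other 6 genes ran from MMP14 at 32.0 CPM through TIMP1, MMP15, ADAM10 and ADAM9 to MMP7 at 7.44 CPM, each overlapping the next. In overexpressing cells ADAM15 at 308 CPM, TIMP2 at 243 CPM, ADAM17 at 135 CPM and MMP7 at 95.7 CPM came first and did not overlap each other. TIMP1, TIMP3, MMP15, MMP14 and ADAM10 followed between 41.6 and 25.01 CPM, each overlapping the next, and ADAM9 was last at 14.5 CPM. By mean level MMP7 thus moved from place 10 to place 4 and TIMP3 from place 2 to place 6, but places differed between single libraries. TIMP3 lay below ADAM17 in control replicate 3, at 120 against 139 CPM. In overexpression replicates 1 and 2 TIMP3, at 21.1 and 21.6 CPM, lay below MMP14, at 22.2 and 23.9 CPM. MMP7 lay above ADAM9 in control replicate 2, at 13.4 against 8.34 CPM.

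The wider pathway was followed in 8 lists of other genes, none of them among the 10, and 57 of the 140 listed genes were in the table. Of these, 2 passed as higher and 0 as lower, beside 0.429% and 0.2% of all genes. They were JAG1 and IL6R, and IL6R was the 1 pathway gene over 5 CPM in the overexpressing group only, so that it had to be higher there to be in the table and nothing is read from its call. JAG1, a Notch ligand, was at 6.66, 6.68 and 5.26 CPM in control and at 24.9, 17.8 and 16.8 CPM in overexpressing libraries. It rose with a log2 fold change of 1.52 ± 0.21 (SE; limma, adjusted p = 0.0243). IL6R, the receptor of interleukin 6, was at 1.33, 1.11 and 1.21 CPM and at 8.97, 6.13 and 3.61 CPM, with 6, 4 and 3 reads in the control libraries and a log2 fold change of 1.64 ± 0.27 (SE). The call of JAG1 depended on single libraries, since it no longer passed without control replicate 3 or overexpression replicates 1 or 2 (limma, adjusted p of 0.0854, 0.0784 and 0.102). The groups did not overlap for 10 of the 57 genes that were higher and 4 that were lower, beside 9.43% and 8.61% of all genes. Nothing is read from these counts or from those by list below. IL6R is among the 10 pathway genes that were higher without overlap, and the lists were written with earlier results of these data known.

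Few other metalloproteases were in the table. Of 20 other MMP genes 2 were in the table: MMP2, the gelatinase activated by MMP14, at 3.33, 4.45 and 9.70 CPM in control and 7.41, 18.1 and 13.5 CPM in overexpressing libraries (log2 fold change 1.07, limma adjusted p = 0.294), and MMP24 (0.03, adjusted p = 0.982). Among 17 other ADAM genes ADAM8 alone was there, with a log2 fold change of 0.30 (adjusted p = 0.632). Of 24 ADAMTS genes, secreted relatives that cut proteoglycans, 3 were there and 0 passed. ADAMTS1 had one of the widest spreads, at 74.4, 12.8 and 143 CPM in control and 6.24, 9.36 and 15.1 CPM in overexpressing libraries, a log2 fold change of -2.32 ± 0.73 (SE; adjusted p = 0.236). ADAMTS5 was at 4.88, 2.23 and 48.5 CPM and at 1.17, 0.968 and 2.96 CPM, so that its log2 fold change of -1.93 (adjusted p = 0.379) rested largely on control replicate 3. It was over 5 CPM in the control group only, as was 1 other pathway gene, BTC, which was named after its values were seen, so these 2 had to be lower in overexpressing cells to be in the table. RECK, a membrane-anchored MMP inhibitor, was the only one of 4 other inhibitors in the table, at 9.77, 13.9 and 12.5 CPM in control and 5.07, 6.78 and 9.20 CPM in overexpressing libraries. These groups did not overlap (8.61% of all genes did so in this direction), and the log2 fold change of -0.72 ± 0.24 (SE) had an adjusted p of 0.258 (limma).

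Of 16 other secreted or membrane metalloproteases 6 were measured and 0 passed. The smallest p-values belonged to BMP1, a procollagen-processing protease, with a log2 fold change of 0.70 ± 0.18 (SE; limma, adjusted p = 0.163), and ECE1, the endothelin-converting enzyme, with 0.71 ± 0.20 (SE; adjusted p = 0.191). These were the 2 genes of the 6 whose groups did not overlap, both higher, beside 9.43% of all genes. Genes of activation and trafficking were mostly present, 11 of 14, and 0 passed. FURIN, the protease that removes the prodomain of many ADAMs and membrane-type MMPs, was at 32.6, 34.8 and 29.1 CPM in control and 48.3, 57.8 and 48.3 CPM in overexpressing libraries (log2 fold change 0.66 ± 0.18, SE; limma, adjusted p = 0.185). RHBDF2, the iRhom2 partner of ADAM17, was at 46.8, 47.0 and 49.7 CPM and at 68.6, 68.4 and 66.7 CPM (0.50 ± 0.17, SE; adjusted p = 0.265). Of the 11 genes, 3 had all overexpressing libraries above the control ones, beside 9.43% of all genes: FURIN, RHBDF2 and TSPAN5, a tetraspanin. Another, 1 of the 11, had them all below, beside 8.61% of all genes: FRMD8, a partner of the iRhoms, at 196, 162 and 218 CPM in control and 134, 92.6 and 159 CPM in overexpressing libraries. TSPAN5 and FRMD8 were named after their values were seen.

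Of 28 listed substrates 18 were measured, and those other than JAG1 and IL6R did not pass. Of 17 transcription factors known from MMP promoters 15 were measured and 0 passed, with 4 log2 fold changes above 0 and 11 below it. Over the whole table, 5246 of 10487 genes had a log2 fold change above 0. The AP-1 subunits JUNB and JUND had the smallest p-values among the 15, with log2 fold changes of -0.57 (limma, adjusted p = 0.289) and -0.46 (adjusted p = 0.305). JUNB was at 131, 181 and 156 CPM in control and 106, 89.1 and 118 CPM in overexpressing libraries, so that all 3 overexpressing libraries were lower. The groups did not overlap for JUNB and JUND, both lower, and for CTNNB1, named after its values were seen, which was higher, beside 8.61% and 9.43% of all genes. The AP-1 subunits FOSL1, FOS, FOSB, JUN and FOSL2, also named after their values were seen, had overlapping groups. Their log2 fold changes were 0.98, -1.19, -0.99, -0.26 and -0.014, so the AP-1 subunits did not all go one way.

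**Figure D4:**
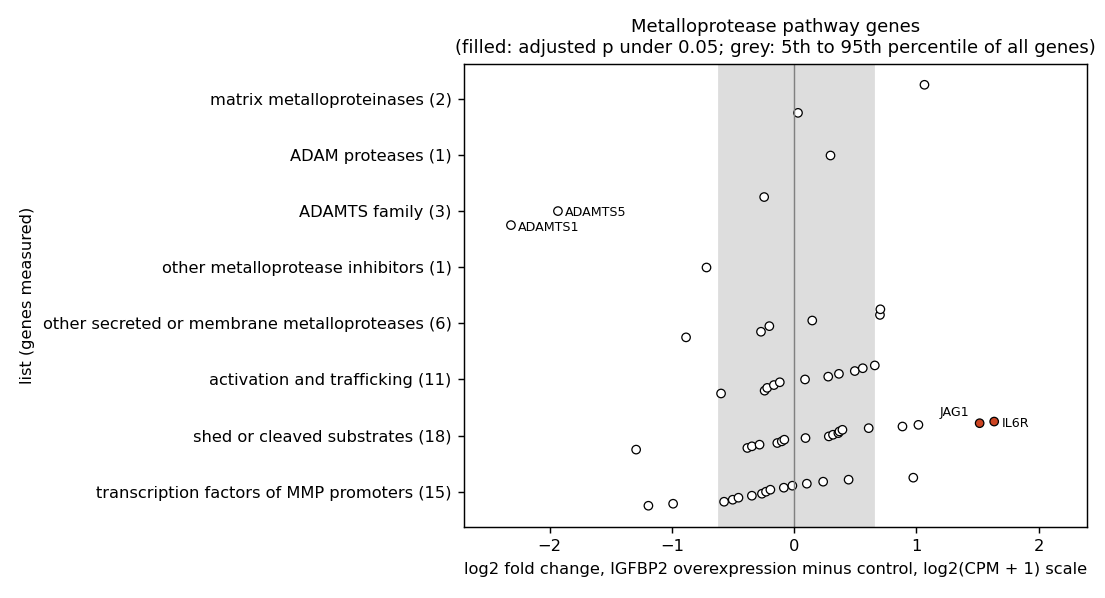
Log2 fold change of the 57 measured pathway genes outside the 10, by list, overexpression minus control on the log2(CPM + 1) scale, with the number measured in brackets. Filled points passed an adjusted p of 0.05, JAG1 at 1.52 and IL6R at 1.64; the open points of ADAMTS1 at -2.32 and ADAMTS5 at -1.93 did not pass. IL6R and ADAMTS5 were over 5 CPM in 1 group only.

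The genes whose log2(CPM + 1) values were most like those of MMP7 over the 6 libraries were FSCN1, ADIPOR1, ANKRD13B, KLHL21 and C1QTNF1, with Pearson's r of 0.996, 0.994, 0.992, 0.992 and 0.991. FSCN1, which encodes the actin-bundling protein fascin, was at 38.4, 59.0 and 34.4 CPM in control and 259, 286 and 193 CPM in overexpressing libraries. ADIPOR1, an adiponectin receptor, spanned a much smaller range, from 24.3 to 43.7 CPM over all libraries. C1QTNF1 was at 3.77, 5.84 and 2.43 CPM in control and 26.9, 32.6 and 17.7 CPM in overexpressing libraries. Its mean was over 5 CPM in the overexpressing group only. It therefore had to be higher there to be in the table, and nothing is read from its likeness to MMP7. Of all genes 67 had an r above 0.95 and 54 an r below -0.95. Of the other 9 genes TIMP3 was the most opposed to MMP7, with an r of -0.80, and TIMP1 and ADAM15 were the most alike, with 0.78 and 0.76. The 6 points fall into the 2 groups of libraries, so these values mostly describe the difference between the groups and carry no p.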

How the data were processed

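Libraries were made with a 3′ mRNA kit from 3 control and 3 IGFBP2-overexpressing samples. Reads were aligned to hg38, and the submitters' notes name bcl2fastq and HTSeq 0.9.1. The authors kept genes averaging over 5 CPM in either condition and deposited log2(CPM + 1) values, the unit used here. All values gave whole reads within 0.1 read, which allowed read numbers and a limma voom alternative. Symbols came from the gene name table; 10462 of 10487 identifiers matched GENCODE 44, from which positions were taken.

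Groups came from sample titles. All genes were fitted with limma 3.58.1 in R 4.3.3 (empirical Bayes without trend, no covariate) with Benjamini-Hochberg adjustment at 0.05. The script was tested on simulated data. No pair of libraries was a duplicate. limma on the log scale took the place of the study's count-based test because log2 values are deposited. The study's own test gave more genes at the same threshold of 0.05 than passed here.

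The members and gene lists were chosen with earlier results of these data known. Genes named were IGFBP2, the 10 members, in each list every gene past the threshold or else the 2 with the smallest p, and the 5 most correlated with MMP7. Alternatives were other pseudocounts (0.1, 5), a minimum of 10 CPM, a variance trend, voom, library scaling, a replicate block and each library left out.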

Additional observations from a re-analysis of the deposited data

How the results depend on the processing

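The 66 genes that passed became 37 with a pseudocount of 0.1, 129 with a pseudocount of 5, 160 with a mean-variance trend and 141 with limma voom on the recovered reads. Leaving out 1 library gave 12 to 79 genes, with 12 without overexpression replicate 1, 13 without overexpression replicate 2 and 17 without control replicate 3. The count of the 10 genes that passed went from 1 to 2, through TIMP3, with a pseudocount of 5, a minimum of 10 CPM, the trend and voom, and ranged from 1 to 2 with 1 library left out, being 2 without overexpression replicate 3. Among the other pathway genes the count of 2 fell to 1, JAG1, with a pseudocount of 5, the minimum of 10 CPM, the trend and voom, and ranged from 0 to 2 with 1 library left out; it was 0 without control replicate 3 and without overexpression replicates 1 or 2. ADAMTS1 passed only without control replicate 2. Among the leave-outs the log2 fold change of MMP24 changed sign, from -0.36 to 0.41, and so did those of 5 of the 10 genes: MMP14 (-0.48 to 0.15), MMP15 (-0.014 to 0.25), ADAM9 (-0.10 to 0.56), ADAM10 (-0.0064 to 0.24) and ADAM17 (-0.036 to 0.18).

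Libraries with the same number in both groups had deviations from their group means that correlated at 0.17, -0.064 and 0.084. Pairs with unlike numbers ran from -0.17 to 0.085. Deviations within a group of 3 are tied to each other, so these values cannot show whether libraries of the same number were handled together. With a replicate block 55 genes passed, 42 of them shared with the 66, and they included 1 of the 10 genes, MMP7, and 1 other pathway gene, JAG1. Depth limits the control values of MMP7, the lowest of which rested on 9 reads, and genes under 5 CPM in both groups were not analysed here.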

Other observations

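MMP7 lies in a cluster of MMP genes on chromosome 11. Of 13 other protein-coding genes within 500 kb, 4 were in the table, and none of the 8 other MMP genes was. The 4 genes were looked up after the values of MMP7 were seen. BIRC3, which encodes an inhibitor of apoptosis protein, was at 3.55, 10.01 and 5.66 CPM in control and 24.6, 21.9 and 24.3 CPM in overexpressing libraries, and it rose with a log2 fold change of 1.82 ± 0.30 (SE; limma, adjusted p = 0.0424). It no longer passed with a pseudocount of 0.1 or the replicate block (adjusted p of 0.0688 and 0.0547), nor without control replicate 3 or any of the overexpressing replicates (0.0977 to 0.153). TMEM123 was at 113, 129 and 116 CPM in control and 253, 265 and 174 CPM in overexpressing libraries, a log2 fold change of 0.92 ± 0.21 (SE; limma, adjusted p = 0.122), and passed with a pseudocount of 5, the trend and voom. BIRC2 had a log2 fold change of 0.67 (limma, adjusted p = 0.294) and YAP1 of 0.23 (adjusted p = 0.688). For BIRC2, BIRC3 and TMEM123 all 3 overexpressing libraries lay above all 3 control libraries, beside 9.43% of all genes.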
